A study of Mus musculus with 18 samples.

Results

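The 7 genes described here encode the mouse inhibitors of cyclin-dependent kinases (CDKs). Cdkn2a, Cdkn2b, Cdkn2c and Cdkn2d form the Ink4 family, and Cdkn1a, Cdkn1b and Cdkn1c form the Cip/Kip family. They were chosen by name as the whole of both families, not by any measured value, and they are 7 of the 18193 genes measured by a probe set with 1 gene symbol. Together they have 9 of the 34945 such probe sets, since Cdkn1a and Cdkn1b have 2 each and the others 1. A gene with more than 1 probe set is represented by the one with the highest mean over all arrays.

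Ink4 proteins bind CDK4 and CDK6 and keep them from the D-type cyclins, while Cip/Kip proteins bind whole cyclin and CDK complexes, mainly those of CDK2. Both slow the phosphorylation of Rb and its relatives, the pocket proteins, which hold E2F transcription factors in check until a cell commits to copying its DNA. In the intestine, crypts hold the dividing stem and progenitor cells, and CDK inhibitors are known there for the exit from the cycle as cells leave the crypt and differentiate.

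Crypts of the small intestine were taken from 2-month-old mice, and their total RNA was measured on 18 arrays of 4 groups. By their labels, E2f TKO crypts (n = 5) had E2f1, E2f2 and E2f3 deleted, Myc KO crypts (n = 4) had Myc deleted, E2f/Myc QKO crypts (n = 5, called QKO from here) had all 4 genes deleted, and control crypts (n = 4) had none of these losses. The deletions used Ah-cre, an inducible Cre driven by the Cyp1a1 promoter, which drugs that activate the aryl hydrocarbon receptor switch on, and crypts were taken 2 days after deletion. The inducing drug, the exact genotype of the controls and whether any E2f allele was already missing in the germline are not stated in the labels. The labels number the samples of a group without saying that each is a separate mouse, so p-values measure the spread between these arrays. Since a crypt is a mixture, fewer cells of a type and less RNA per cell cannot be told apart.

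Values are log2 signals. Array medians lay between 6.14 and 6.26. They were 6.22 to 6.26 in Myc KO and 6.23 to 6.26 in QKO arrays. In control and E2f TKO arrays they were lower without overlap, at 6.15 to 6.16 and 6.14 to 6.19. On single arrays 16 genes of other organs read from 3.21 to 10.24, with 5.92 as the median of their medians. A signal near 6 is therefore not shown to be above background. The 8 epithelial markers averaged 12.39 to 12.67 on every array. Myc followed its labels, at 8.11 to 8.40 in Myc KO and 7.94 to 8.52 in QKO arrays, against 9.69 to 10.30 in controls. The arrays labelled E2f TKO 2 and 5 stood apart. Their E2f3 signals of 9.35 and 9.10 were above every control (8.62 to 8.96), whereas the other 3 arrays of that group read 8.08 to 8.39. Their Cyp1a1 signals were 5.05 and 4.91, against 12.66 to 14.09 on the other 16 arrays, so their values go against the label, and the inhibitors' E2f TKO differences from control are also given without them. The probe sets of E2f1 and E2f2 did not pass the test in E2f TKO or QKO crypts against control. Whether they lie in a deleted part is not given, so they check nothing. Xist read 12.02 to 13.40 in E2f TKO 1 and 4, QKO 4 and 5 and control 3, and was low on the other arrays. The difference between 3' and 5' actin probe sets, a sign of RNA integrity, was 0.26 to 0.78 in E2f TKO, 0.18 to 0.22 in Myc KO and 0.19 to 0.31 in QKO arrays, against 0.31 to 0.44 in controls.

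Both groups labelled as lacking the E2f genes, E2f TKO and QKO, had a low signal of 2 Ink4 members, Cdkn2c and Cdkn2d. Against control, 2 of the 7 inhibitors were lower and 0 higher in E2f TKO crypts, where 2.9% of all genes passed the test, 1.22% lower and 1.68% higher. In QKO crypts 3 of 7 were lower and 0 higher, where 26.9% of all genes passed, 12.6% lower and 14.3% higher. In Myc KO crypts 1 of 7 was higher and 0 lower, where 8.31% passed, 3.59% higher and 4.72% lower. The median difference of the 7 was -0.40 in E2f TKO, 0.16 in Myc KO and -0.22 in QKO crypts, while the median over all genes was -0.0042 in E2f TKO, 0.02 in Myc KO and 0.03 in QKO crypts. The arrays of 2 genes did not overlap those of control in E2f TKO crypts (5.43% of all genes), of 1 gene in Myc KO crypts (22.4%) and of 2 genes in QKO crypts (26.2%). These 3 comparisons share their control arrays. Every test below is that of limma, two-sided, with the adjusted p of Benjamini and Hochberg over all genes, passed below 0.05.

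**Figure D1:**
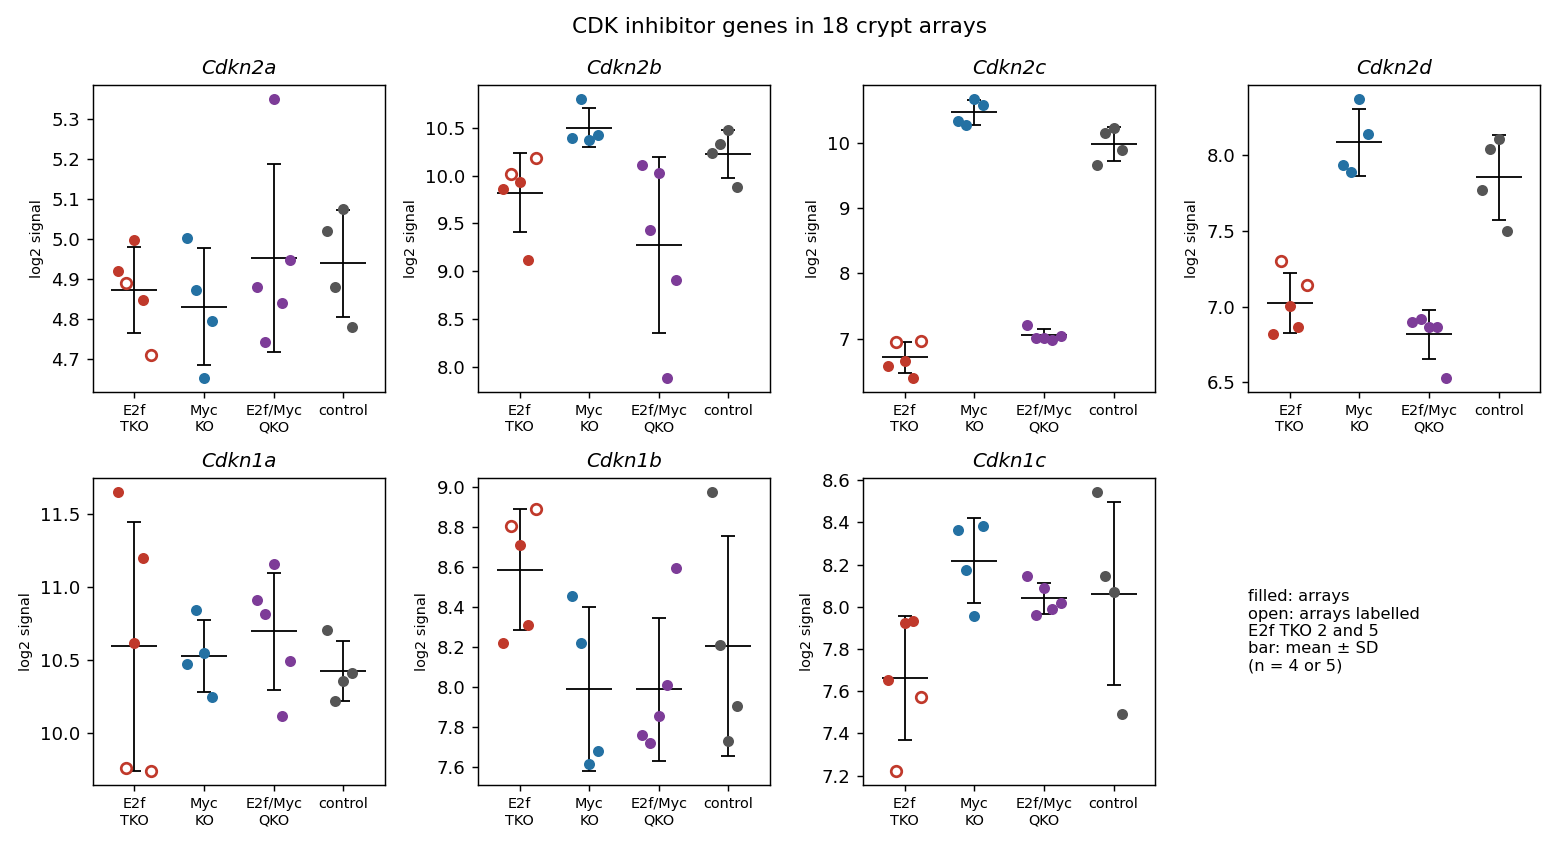
Log2 signal of each CDK inhibitor gene on every array, 1 panel a gene, with 1 point an array and the mean ± SD of each group. Open circles are the arrays labelled E2f TKO 2 and 5. Cdkn2c and Cdkn2d separate E2f TKO and QKO arrays from Myc KO and control arrays without overlap, and the groups of Cdkn2a lie on top of each other.

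Cdkn2c encodes p18INK4c. Its signal was 6.59, 6.95, 6.65, 6.40 and 6.97 in E2f TKO crypts 1 to 5, and 7.21, 7.01, 7.02, 6.98 and 7.05 in QKO crypts 1 to 5. It was 10.34, 10.28, 10.68 and 10.59 in Myc KO crypts 1 to 4, against 9.66, 10.16, 10.23 and 9.90 in control crypts 1 to 4. All 10 arrays labelled E2f TKO or QKO were low, including E2f TKO 2 and 5, whose E2f3 signal was above every control, and none came near an array labelled Myc KO or control. Cdkn2c fell by 3.27 ± 0.13 (SE) in E2f TKO crypts, or 9.68-fold (limma adjusted p = 6.3e-11), and its difference in QKO crypts was -2.94 ± 0.13, or 7.66-fold lower (adjusted p = 4e-10). Since the low signals lie within about 1 log2 unit of the array medians, these folds may be too small. Of the 18193 genes, Cdkn2c had the smallest p in both comparisons, and ranked 4 from the lowest by difference in E2f TKO and 3 in QKO crypts. Without the arrays labelled E2f TKO 2 and 5 the E2f TKO difference was -3.44 ± 0.13 (adjusted p = 3.43e-10).

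In Myc KO crypts Cdkn2c differed from control the other way and far less. It was 0.48 ± 0.14 higher in Myc KO than in control crypts (limma adjusted p = 0.0366) and every Myc KO array was above every control array. The call was lost without control 1 (adjusted p = 0.103), control 4 (0.102), or Myc KO 1 (0.0543), 3 (0.102) or 4 (0.0826). Between the groups labelled as lacking the E2f genes, QKO crypts stood 0.34 ± 0.12 above E2f TKO crypts, which missed the threshold (adjusted p = 0.0665, 95% interval 0.08 to 0.60), although the groups did not overlap (9.22% of all genes). Without E2f TKO 2 and 5 that difference was 0.50 ± 0.12 and passed (adjusted p = 0.0167). The interaction, the amount by which QKO departs from the sum of the E2f TKO and Myc KO differences from control, was -0.15 for Cdkn2c (adjusted p = 0.948, 95% interval -0.53 to 0.24).

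Cdkn2d encodes p19INK4d. Its signal was 6.82, 7.30, 7.003, 6.86 and 7.14 in E2f TKO crypts, and 6.90, 6.92, 6.87, 6.86 and 6.53 in QKO crypts. It was 7.94, 7.89, 8.37 and 8.14 in Myc KO crypts, against 7.77, 8.04, 8.11 and 7.50 in control crypts. Again the arrays labelled E2f TKO or QKO lay below all others without overlap. The gap was narrow, and at its lower edge, at 7.30, was the array labelled E2f TKO 2, whose E2f3 signal goes against that label, with control 4 above it at 7.50. Cdkn2d fell by 0.83 ± 0.14 in E2f TKO crypts, or 1.78-fold (limma adjusted p = 0.00168), and by 1.04 ± 0.14 in QKO crypts, or 2.06-fold (adjusted p = 4.12e-05). Its signals in these groups were near those of Cdkn2c, so these folds may also be too small. Without E2f TKO 2 and 5, the 3 other E2f TKO arrays averaged 6.90 and the difference was -0.96 (adjusted p = 0.00107). The lower calls of Cdkn2c and Cdkn2d in both genotypes held in every alternative run. Cdkn2d in Myc KO crypts differed from control by 0.23 ± 0.14 (adjusted p = 0.347, 95% interval -0.07 to 0.53).

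The promoters of the 2 genes that fell together, and of Cdkn2a for contrast, are shown as 300 bases from 250 before to 50 after a transcription start in RefSeq, build GRCm38.p6, read 5' to 3' on the minus strand. Capitals mark any match, on either strand, to 3 motifs. TTTNNCGC, with any base at N, and TTCCCGC were taken as E2F-like letters, and the second can lie inside the first. CACGTG is the E-box bound by Myc with Max.
Cdkn2c start 1, chr4:109666707-109667006: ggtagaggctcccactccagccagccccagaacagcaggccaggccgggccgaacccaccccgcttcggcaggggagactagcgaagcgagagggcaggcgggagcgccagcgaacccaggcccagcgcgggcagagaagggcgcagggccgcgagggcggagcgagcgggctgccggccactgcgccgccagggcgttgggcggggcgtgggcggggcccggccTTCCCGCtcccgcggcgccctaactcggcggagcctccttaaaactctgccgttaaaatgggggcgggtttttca
Cdkn2c start 2, chr4:109665323-109665622: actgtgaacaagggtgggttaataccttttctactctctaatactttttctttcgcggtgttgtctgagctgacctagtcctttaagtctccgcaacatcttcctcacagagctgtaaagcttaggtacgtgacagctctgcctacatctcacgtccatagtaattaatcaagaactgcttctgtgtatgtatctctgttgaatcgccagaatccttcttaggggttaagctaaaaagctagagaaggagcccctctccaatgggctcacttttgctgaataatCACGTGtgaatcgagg
Cdkn2d, chr9:21291160-21291459: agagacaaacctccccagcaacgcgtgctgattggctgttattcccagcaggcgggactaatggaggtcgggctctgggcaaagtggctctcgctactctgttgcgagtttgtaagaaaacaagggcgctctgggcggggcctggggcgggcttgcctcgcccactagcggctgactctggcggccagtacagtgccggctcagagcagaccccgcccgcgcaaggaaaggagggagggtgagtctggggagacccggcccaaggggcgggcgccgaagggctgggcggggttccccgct
Cdkn2a upstream start, chr4:89294570-89294869: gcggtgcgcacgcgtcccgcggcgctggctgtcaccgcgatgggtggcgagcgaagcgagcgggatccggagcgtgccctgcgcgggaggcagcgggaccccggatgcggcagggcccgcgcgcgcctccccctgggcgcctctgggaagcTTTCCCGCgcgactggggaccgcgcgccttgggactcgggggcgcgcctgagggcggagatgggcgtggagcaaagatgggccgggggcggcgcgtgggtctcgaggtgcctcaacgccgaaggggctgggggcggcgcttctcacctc
Cdkn2c start 1 held TTCCCGC once, and start 2 held CACGTG once. Cdkn2d held none of the 3, and the Cdkn2a upstream start held TTTCCCGC, a match to both E2F-like motifs. Among 32851 promoters of 27025 genes, 5.17% held TTTNNCGC, 4.6% held TTCCCGC and 7.15% held CACGTG. Of the other promoters, the second start of Cdkn2a held TTTAGCGC and those of Cdkn2b, Cdkn1a and Cdkn1b held none of the 3 motifs; 6 of the 7 genes had an entry, and Cdkn1c was not matched. A match is a description of these letters, and binding was not measured.

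Cdkn2b encodes p15INK4b, an inhibitor that TGF-beta induces. Its signal was 9.86, 10.01, 9.93, 9.11 and 10.18 in E2f TKO crypts, and 10.11, 9.43, 10.03, 7.89 and 8.90 in QKO crypts. It was 10.40, 10.80, 10.38 and 10.42 in Myc KO crypts, against 10.23, 10.33, 10.47 and 9.88 in control crypts. QKO arrays ranged widely, from a value within the controls to 1 array far below every other, while each Myc KO array was above each QKO and E2f TKO array. The QKO mean was 9.27 ± 0.92 (SD, n = 5), against 10.23 ± 0.25 (n = 4) in control, a difference of -0.96 ± 0.34 (limma adjusted p = 0.044). This call was unstable: it held in 7 of the 18 fits that left out 1 array and was lost in 13 of 25 alternatives in all. It was lost without any single control (adjusted p = 0.0520 to 0.110), without E2f TKO 3 or Myc KO 1, 3 or 4 (0.0527 to 0.0531) and without QKO 2, 4 or 5 (0.0619 to 0.0894). Without QKO 4 the difference itself was -0.61. QKO 4 also had the lowest mean signal of 10 enterocyte markers of any array (11.96, against 12.85 to 13.21 in the other QKO arrays), and QKO 4 and 5 were the QKO arrays with high Xist. The part of either in the result was not tested.

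Against Myc KO crypts, Cdkn2b in QKO crypts was lower by -1.23 ± 0.34 on the log2 scale (limma adjusted p = 0.0329). That call was lost without any single Myc KO array (adjusted p = 0.0639 to 0.0986), without QKO 2 (0.0529) or QKO 5 (0.0750), and with these groups fitted alone (0.0733). E2f TKO crypts differed from control by -0.41 ± 0.34 (adjusted p = 0.682, 95% interval -1.12 to 0.30), or -0.59 without E2f TKO 2 and 5 (0.441), and Myc KO crypts by 0.27 ± 0.36 (adjusted p = 0.689, 95% interval -0.48 to 1.02).

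Cdkn2a encodes p16INK4a and, from another first exon and reading frame, p19ARF, which protects p53 from Mdm2. Which of these transcripts its probe set reads was not determined. Its signal was 4.92, 4.89, 5.00, 4.85 and 4.71 in E2f TKO crypts, and 4.88, 4.74, 5.35, 4.84 and 4.95 in QKO crypts. It was 5.00, 4.87, 4.65 and 4.80 in Myc KO crypts, against 5.02, 4.88, 5.07 and 4.78 in control crypts. All 4 groups overlapped, and every array lay more than 0.5 below its own median signal, so no level above background was shown. The differences from control had 95% intervals of -0.29 to 0.16 in E2f TKO, -0.35 to 0.13 in Myc KO and -0.21 to 0.24 in QKO crypts (limma adjusted p = 0.87, 0.604 and 0.944). Without E2f TKO 2 and 5 the E2f TKO difference was -0.0182, against -0.0666 with them.

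**Figure D2:**
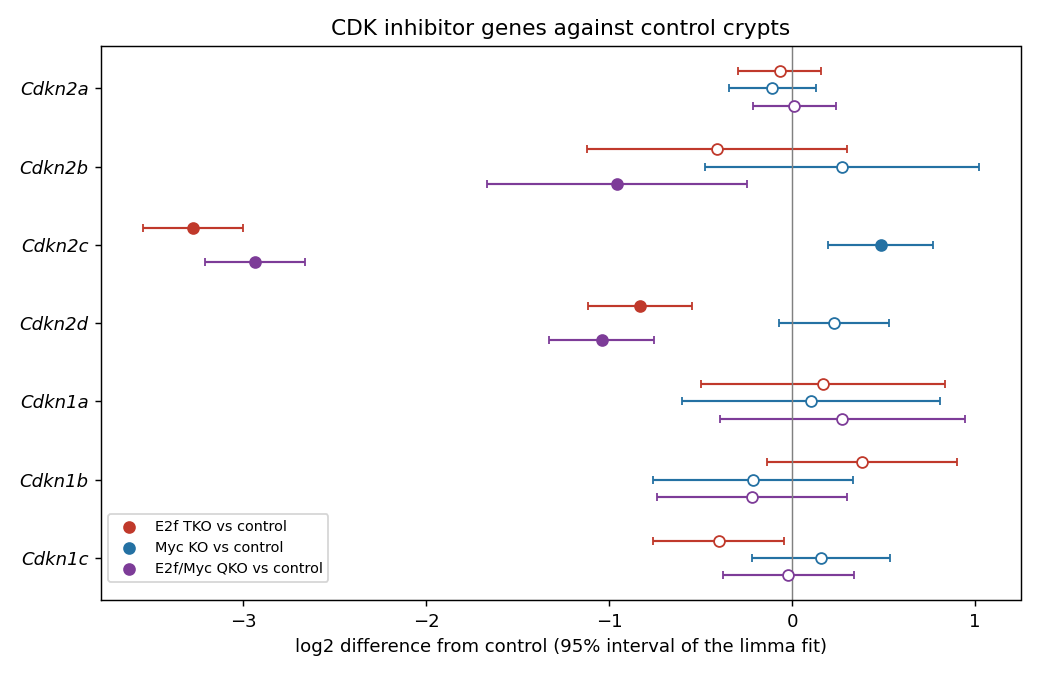
Log2 difference of each CDK inhibitor gene from control crypts in E2f TKO, Myc KO and QKO crypts, with the 95% interval of the limma fit. Filled points passed the test and open points did not. Cdkn2c stands at -3.27 in E2f TKO and -2.94 in QKO crypts, Cdkn2d at -0.83 and -1.04, and all points of the Cip/Kip genes are open.

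The Cip/Kip family gave no call against control in any genotype by the brighter probe sets. Cdkn1a encodes p21, a target of p53 and a gene that Myc can repress. Its brighter probe set read 11.65, 9.76, 10.61, 11.20 and 9.74 in E2f TKO crypts, and 10.91, 10.81, 11.15, 10.12 and 10.49 in QKO crypts. In Myc KO crypts it read 10.47, 10.84, 10.55 and 10.25, against 10.71, 10.22, 10.36 and 10.41 in control crypts. The E2f TKO arrays held both the highest and the lowest values of the series. The 2 lowest were the arrays labelled E2f TKO 2 and 5, and without them E2f TKO crypts stood 0.73 above control, short of the threshold (limma adjusted p = 0.0813), against 0.17 ± 0.32 with them (adjusted p = 0.893). The enterocyte markers averaged 13.93, 12.64, 13.29, 13.01 and 12.45 in E2f TKO crypts 1 to 5, so the array highest in Cdkn1a was also highest in these markers and the 2 lowest were also lowest. The 9 T cell markers averaged 8.33, 6.45, 7.41, 7.71 and 6.18 on the same arrays, which is the order of Cdkn1a. The 19 mitotic markers averaged 8.80, 10.30, 9.76, 9.91 and 10.15, lowest in E2f TKO 1 and highest in E2f TKO 2. The part of any of these cells in the Cdkn1a result was not tested. In QKO crypts the brighter probe set differed from control by 0.27 (adjusted p = 0.564, 95% interval -0.39 to 0.94), and in Myc KO crypts by 0.10 (adjusted p = 0.886, 95% interval -0.60 to 0.81).

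The dimmer Cdkn1a probe set read another pattern. It gave 10.59, 8.25, 9.40, 10.17 and 9.41 in E2f TKO crypts, and 10.30, 10.51, 10.90, 9.68 and 10.08 in QKO crypts. It gave 10.13, 10.65, 10.27 and 10.13 in Myc KO crypts, against 9.70, 8.85, 9.24 and 9.18 in control crypts. All Myc KO arrays were above all controls, and of the QKO arrays only QKO 4 dipped below the highest control. Over all single-symbol probe sets, of which 27.1% passed in QKO crypts and 10.8% in Myc KO crypts, this probe set was 1.05 ± 0.34 higher in QKO than in control crypts (limma adjusted p = 0.0296). In Myc KO crypts it was 1.05 ± 0.36 above control and missed the threshold (adjusted p = 0.0704). The QKO call was lost without control 2, 3 or 4 or QKO 2 or 3 (adjusted p = 0.0608 to 0.0919). The Myc KO difference passed with Myc KO and control arrays fitted alone (adjusted p = 0.00292), and without E2f TKO 2 and 5 (0.0139), E2f TKO 1 (0.0314) or E2f TKO 2 (0.0189). The brighter probe set, whose intervals reached up to 0.94 in QKO and 0.81 in Myc KO crypts, made neither call. The 3' to 5' actin difference was 0.18 to 0.22 in Myc KO and 0.31 to 0.44 in control arrays, without overlap. It was 0.19 to 0.31 in QKO and 0.26 to 0.78 in E2f TKO arrays. The part of RNA integrity in the disagreement of the probe sets was not tested.

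**Figure D3:**
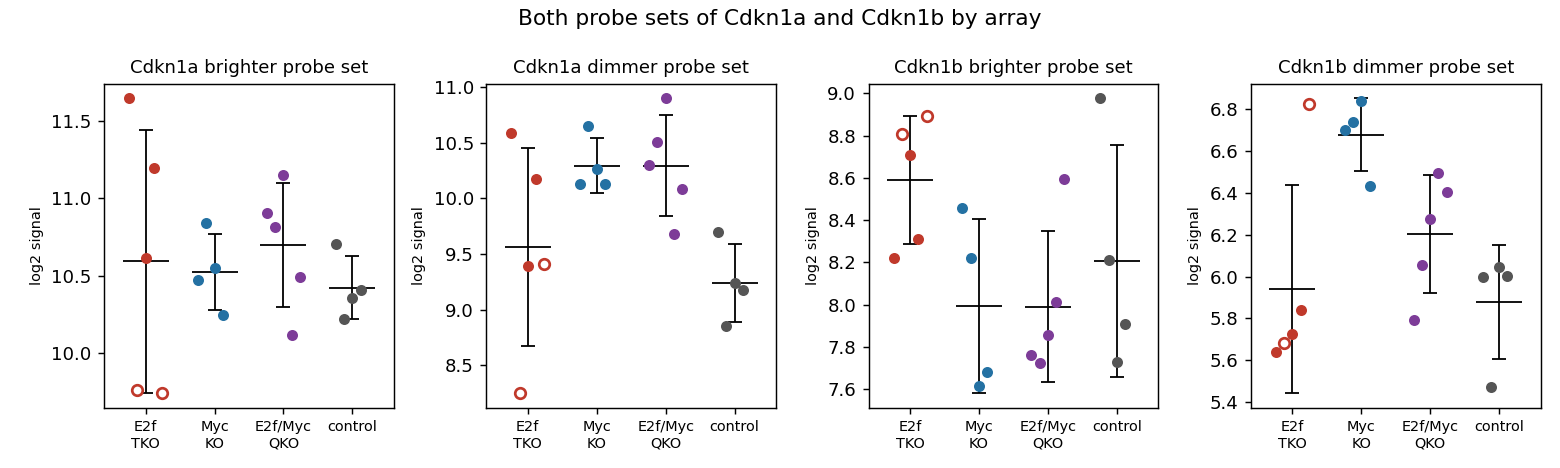
Log2 signal on every array of the brighter and the dimmer probe set of Cdkn1a and of Cdkn1b, with 1 point an array, the mean ± SD of each group and open circles for the arrays labelled E2f TKO 2 and 5. The dimmer probe sets of both genes place all 4 Myc KO arrays above all 4 control arrays, and the brighter ones do not. Myc KO and control arrays also differ without overlap in the 3' to 5' actin difference, whose part was not tested.

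Cdkn1b encodes p27, whose protein is largely controlled by its destruction. Its brighter probe set read 8.22, 8.81, 8.71, 8.31 and 8.89 in E2f TKO crypts, and 7.76, 7.72, 7.86, 8.01 and 8.60 in QKO crypts. It read 8.46, 8.22, 7.62 and 7.68 in Myc KO crypts, against 8.98, 8.21, 7.73 and 7.91 in control crypts. The control arrays alone spanned most of this range, and the 95% intervals of the differences were -0.14 to 0.90 in E2f TKO, -0.76 to 0.33 in Myc KO and -0.74 to 0.30 in QKO crypts. The E2f TKO difference was 0.38 ± 0.25 (limma adjusted p = 0.555), or 0.21 without E2f TKO 2 and 5 (0.751). QKO crypts lay below E2f TKO crypts by -0.60 ± 0.23 on the log2 scale, which missed the threshold (limma adjusted p = 0.0847). That difference passed in 3 of 25 alternatives, without control 1 (adjusted p = 0.0458), E2f TKO 1 (0.0478) or QKO 5 (0.0352). It was -0.42 without E2f TKO 2 and 5 (0.335) and -0.17 with the probe sets averaged (0.542).

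The dimmer Cdkn1b probe set, near the array medians, read 5.64, 5.68, 5.73, 5.84 and 6.82 in E2f TKO crypts, and 5.79, 6.05, 6.27, 6.49 and 6.40 in QKO crypts. It read 6.70, 6.74, 6.84 and 6.43 in Myc KO crypts, against 5.996, 5.47, 6.04 and 6.003 in control crypts. It was 0.80 ± 0.22 higher in Myc KO than in control crypts (limma adjusted p = 0.0263), with no overlap, where the brighter probe set was lower by 0.21 and did not pass (-0.21, adjusted p = 0.665). The call was lost without control 2 (adjusted p = 0.0915) or Myc KO 1, 2 or 3 (0.0631 to 0.0687). In E2f TKO against Myc KO crypts it was lower by -0.73 ± 0.21 on the log2 scale (adjusted p = 0.0227), where 15.9% of probe sets passed, and this call was lost with those groups fitted alone (0.071) and without E2f TKO 2 or 3 or Myc KO 1, 2 or 3 (0.0526 to 0.0642). For that comparison the brighter probe set had the opposite sign and did not pass (0.60 ± 0.25, adjusted p = 0.119). In QKO against E2f TKO crypts the dimmer probe set stood at 0.26 (adjusted p = 0.379), again opposite in sign to the brighter one. Since the 2 probe sets disagree in sign for Myc KO against control and for both of these comparisons, no direction is given for the gene in them. The part of RNA integrity, by the actin difference given above, was not tested for Cdkn1b either.

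Cdkn1c encodes p57 from an imprinted locus that is expressed from the maternal copy. Its signal was 7.65, 7.22, 7.92, 7.93 and 7.57 in E2f TKO crypts, and 8.14, 7.96, 8.09, 7.99 and 8.02 in QKO crypts. It was 8.36, 8.17, 7.95 and 8.38 in Myc KO crypts, against 8.54, 8.14, 8.07 and 7.49 in control crypts. The QKO arrays were the tightest group and all lay just above the E2f TKO arrays, whereas the controls spread across both. E2f TKO crypts were 0.40 below control without passing (-0.40 ± 0.17, limma adjusted p = 0.286), or -0.22 without E2f TKO 2 and 5, the 2 lowest arrays of that group (0.529), and QKO crypts differed from control by -0.02 (adjusted p = 0.942, 95% interval -0.38 to 0.34).

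The genotypes were also set against each other. Of E2f TKO against Myc KO crypts, 3 of 7 inhibitors were lower and 0 higher, where 14% of all genes passed, 6.16% lower and 7.87% higher. The groups did not overlap for 4 of 7, where 12.6% of all genes did not. Cdkn2c was lower by 13.5-fold (-3.76 ± 0.13, limma adjusted p = 5.96e-12), Cdkn2d by 2.09-fold (-1.06 ± 0.14, adjusted p = 9.24e-05) and Cdkn1c by -0.56 ± 0.17 on the log2 scale (adjusted p = 0.0365). The Cdkn1c call was lost without E2f TKO 2 and 5 (-0.38, adjusted p = 0.173), without either of them alone (0.0859 and 0.0646), without Myc KO 1, 2 or 4 (0.0728 to 0.104), with these groups fitted alone (0.059) and with the sample numbers as a block (0.0582).

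Of QKO against Myc KO crypts, 3 of 7 were lower and 0 higher, where 7.68% of all genes passed, 3.09% lower and 4.6% higher. The groups did not overlap for 3 of 7, where 13.7% of all genes did not. Cdkn2c was 10.7-fold lower (-3.42 ± 0.13, limma adjusted p = 2.98e-11) and Cdkn2d 2.41-fold lower (-1.27 ± 0.14, adjusted p = 2.98e-05), and Cdkn2b was the third. QKO and E2f TKO crypts differ by Myc according to their labels. Their signals also differed in E2f1 (0.42 ± 0.10, limma adjusted p = 0.0102), and in E2f3 without passing (-0.49 ± 0.18, 0.0703). Of QKO against E2f TKO crypts, limma called 0 of 7 where 17% of all genes passed, with 3 of 7 at an unadjusted p under 0.05 (Cdkn2c, Cdkn1b and Cdkn1c). Without E2f TKO 2 and 5, Cdkn2c passed in this comparison. Cdkn1c was 0.38 ± 0.16 higher in QKO than in E2f TKO crypts without passing (adjusted p = 0.112), or 0.20 without E2f TKO 2 and 5 (0.47). The interaction called 0 of 7, where 0.055% of all genes (10 genes) passed. Only Cdkn2d had an unadjusted p under 0.05 in it (-0.44 ± 0.19, adjusted p = 0.751).

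Cdkn2a, Cdkn2b and Cdkn2c lie on chromosome 4, as does E2f2, while Cdkn2d lies on 9, Cdkn1a on 17, Cdkn1b on 6 and Cdkn1c on 7. In the RefSeq gene order of GRCm38.p6, 329 measured genes separate Cdkn2c from E2f2. The fall of Cdkn2c was not shared by its neighbours at that size. Of its 10 nearest measured genes, 1 passed in E2f TKO crypts, the adjacent Faf1, which encodes a Fas-binding protein (-0.34 ± 0.08, limma adjusted p = 0.0204), and the 10 ranged from -0.34 to 0.59. In QKO crypts 3 of 10 passed, Faf1 (-0.39, adjusted p = 0.00133), Rnf11 (0.46, 0.000493) and Ttc39a (0.89, 0.00117), close to the 26.9% of all genes. In Myc KO crypts, where Cdkn2c was 0.48 higher, 2 of its 10 neighbours passed, against 8.31% of all genes. These were the adjacent 9630013D21Rik (0.40, limma adjusted p = 0.013) and Rnf11 (0.34, 0.0202). Faf1, adjacent on the other side, stood at 0.04 (0.818), and the 10 ranged from -0.08 to 0.40. Around Cdkn2b and around Cdkn2d, 2 of 10 also passed in Myc KO crypts. Around Cdkn2d, 0 of 10 passed in E2f TKO crypts (range -0.32 to 0.02), and in QKO crypts 3 of 10 did: Keap1 (-0.30, adjusted p = 0.00182), Qtrt1 (-0.54, 0.024) and Dnm2 (0.33, 0.00808). Around Cdkn2b, 0 of 10 passed in E2f TKO crypts and 3 of 10 in QKO crypts, Ifna5 (-0.39, adjusted p = 0.0305), Elavl2 (0.23, 0.0396) and Tusc1 (0.34, 0.0358).

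**Figure D4:**
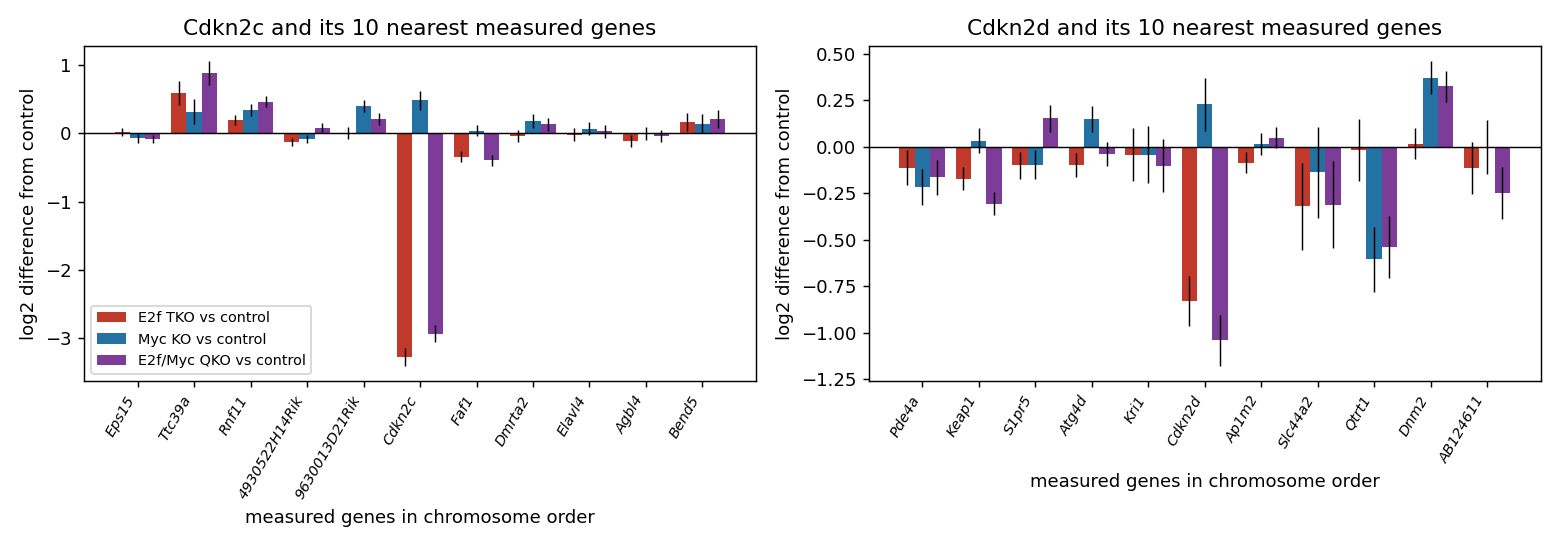
Log2 difference from control in E2f TKO, Myc KO and QKO crypts of Cdkn2c, of Cdkn2d and of the 10 measured genes nearest to each, in chromosome order with equal spacing. Cdkn2c falls to -3.27 and -2.94 between neighbours that lie between -0.39 and 0.89, and Cdkn2d lies at -0.83 and -1.04.

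The genes with the profile most like that of Cdkn2c were sought over the 18 arrays, by the root mean square difference between log2 profiles centred on their means. They were Mcpt1 (0.830), Pyroxd2 (0.842), Mcpt2 (0.851), Ocel1 (0.864) and Rims4 (0.919), against a root mean square of 1.69 for the profile of Cdkn2c itself. Mcpt1 and Mcpt2 encode proteases of mucosal mast cells. Mcpt1 differed from control by -2.06 in E2f TKO (limma adjusted p = 0.00402), 1.46 in Myc KO (0.0304) and -1.85 in QKO crypts (0.00167), and Mcpt2 by -2.21 (0.00208), 1.68 (0.0148) and -1.68 (0.00299). Over the 6 mast cell markers the mean signal was 5.70 to 6.29 in E2f TKO, 6.81 to 7.74 in Myc KO and 5.999 to 6.10 in QKO arrays, against 6.58 to 6.85 in controls. Their summed level on the log2 scale was 8.70 to 9.16, 9.79 to 11.50 and 8.79 to 8.98, against 9.40 to 9.76 in controls. Of the other 4, Cpa3, Tpsb2 and Kit passed in none of the 3 comparisons with control, and Cma1 passed in QKO crypts alone (-0.24, adjusted p = 0.0372). Tpsb2 read 5.53 to 6.002 and Cpa3 5.32 to 5.71 in E2f TKO arrays, both under the array medians. The part of mast cells in the Cdkn2c result was not tested.

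Nearest to Cdkn2d (own root mean square 0.566) were Efcab7 (0.222), Particl (0.245), Ufl1 (0.266), Adat2 (0.267) and Rex1bd (0.276). All 5 passed as lower in both E2f TKO and QKO crypts against control, from -0.64 for Ufl1 to -1.21 for Adat2 in E2f TKO and from -0.75 for Efcab7 to -1.45 for Adat2 in QKO crypts. Nearest to Cdkn2b (0.676) were H1f2 (0.369), Celf5 (0.394), Slc13a1 (0.394), Nr1d2 (0.403) and Efnb2 (0.404). These genes were chosen on the same arrays, so their tests add no support.

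Markers of dividing and of rare epithelial cells also differed between groups. The 19 mitotic markers averaged 8.80 to 10.30 in E2f TKO, 9.99 to 10.39 in Myc KO and 8.76 to 9.57 in QKO arrays, against 10.20 to 10.47 in controls. Enteroendocrine markers (13 genes) averaged 9.35 to 9.44, 9.19 to 9.45 and 9.52 to 9.82, against 8.71 to 9.05 in controls, and tuft cell markers (7 genes) 6.89 to 7.24, 7.13 to 7.20 and 7.33 to 7.78, against 6.85 to 6.97. Thus the mitotic level was lower in QKO arrays than in any control without overlap, and the other 2 lists were higher in QKO arrays without overlap. Enteroendocrine markers were also above every control in E2f TKO and Myc KO arrays, and tuft cell markers in Myc KO arrays. Crypt stem markers (8 genes) averaged 8.76 to 9.87 in E2f TKO, 9.50 to 9.81 in Myc KO and 9.64 to 10.49 in QKO arrays, against 9.24 to 9.47 in controls. The part of these shifts in the Ink4 results was not tested.

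The partners that these inhibitors act on did not move as a block. Of 9 CDK and cyclin genes, 1 was higher and 1 lower in E2f TKO and in Myc KO crypts, and 3 were higher and 2 lower in QKO crypts, with medians of 0.17, -0.06 and 0.13. Of all genes, 1.68% were higher and 1.22% lower in E2f TKO crypts, and 3.59% higher and 4.72% lower in Myc KO crypts. In QKO crypts 14.3% of all genes were higher and 12.6% lower. The counts of the lists below stand beside the same shares. Ccnd2, a D-type cyclin, was higher in each genotype against control, by 1.05 ± 0.17 in E2f TKO (limma adjusted p = 0.00136), 1.51 ± 0.18 in Myc KO (0.000134) and 2.07 ± 0.17 in QKO crypts (4.72e-07). Ccnd3 was higher in QKO crypts (0.70 ± 0.14, adjusted p = 0.00178). The remaining higher call in QKO crypts was lost in 1 of 22 alternatives (adjusted p up to 0.0541). Ccne2, a cyclin of CDK2, was lower by -0.81 ± 0.20 in E2f TKO (adjusted p = 0.0387, lost in 10 of 22 alternatives, where it reached 0.192) and by -1.85 ± 0.20 in QKO crypts (1.03e-05), and Ccna2 by -0.95 ± 0.22 in QKO crypts (0.00401). Ccnd1 was lower in Myc KO crypts (-0.75 ± 0.20, adjusted p = 0.0257, lost in 5 of 22 alternatives, where it reached 0.0929).

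Of the 3 pocket proteins, 0 passed in E2f TKO crypts and 1 was lower in Myc KO crypts, where 4.72% of all genes were lower. In QKO crypts 1 was higher and 2 lower, where 14.3% of all genes were higher and 12.6% lower. The medians were -0.17 in E2f TKO, -0.17 in Myc KO and -0.49 in QKO crypts. Rb1 was lower in Myc KO (-0.65 ± 0.14, limma adjusted p = 0.0103) and QKO crypts (-0.89 ± 0.13, 0.00014). Rbl2, which encodes p130, was lower (-0.49 ± 0.10, 0.00174) and Rbl1, which encodes p107, higher (0.57 ± 0.09, 0.000181) in QKO crypts.

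**Figure D5:**
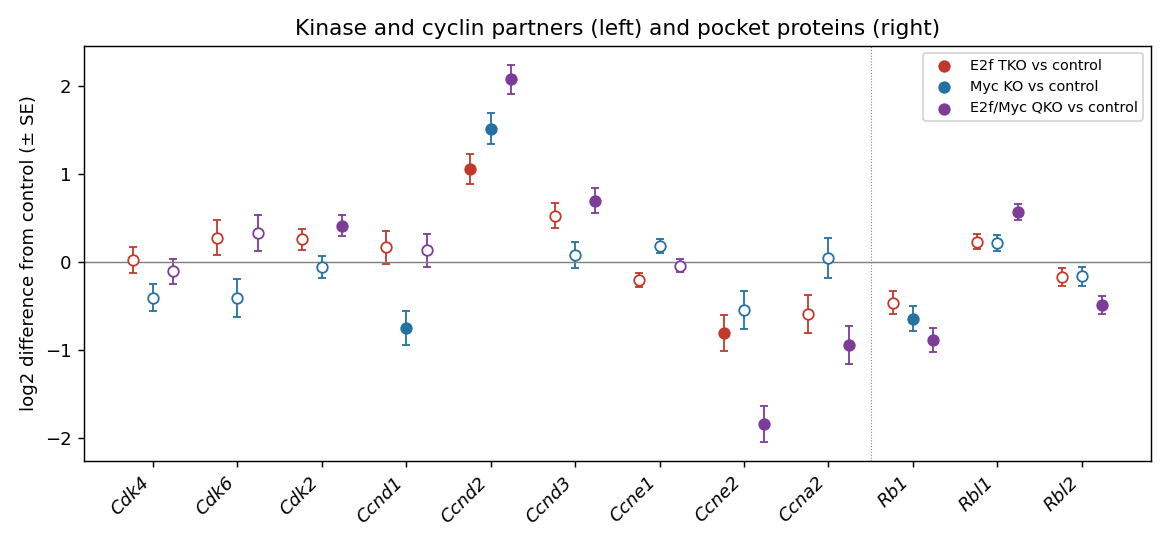
Log2 difference from control (± SE of the limma fit) of 9 kinase and cyclin partners and, right of the dotted line, 3 pocket proteins in E2f TKO, Myc KO and QKO crypts. Filled points passed the test and open points did not. Ccnd2 is higher in all 3 genotypes, at 1.05, 1.51 and 2.07, and Rb1 is lower in Myc KO and QKO crypts.

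Of 9 other CDK regulators, 1 was higher in E2f TKO crypts, where 1.68% of all genes were higher, and 0 passed in Myc KO crypts. In QKO crypts 1 was higher and 3 lower, where 14.3% of all genes were higher and 12.6% lower. The medians were -0.10 in E2f TKO, -0.10 in Myc KO and -0.13 in QKO crypts. Pkmyt1, a kinase that inhibits CDK1, was higher by 0.36 ± 0.09 in E2f TKO (limma adjusted p = 0.0416, lost in 14 of 22 alternatives, where it reached 0.135) and 0.88 ± 0.09 in QKO crypts (6.63e-06). The phosphatases Cdc25c (-1.10, 0.000841) and Cdc25b (-1.31, 0.00119), which activate CDKs, and Cdkn3 (-1.54, 0.00406), a phosphatase that acts on CDK2 despite its symbol, were lower in QKO crypts.

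Of 9 genes of p27 turnover and transcription, 0 passed in E2f TKO or Myc KO crypts (medians -0.05 and -0.15). In QKO crypts 6 were lower and 0 higher (median -0.33), where 12.6% of all genes were lower and 14.3% higher. The 6 lower genes include Skp2, the ubiquitin ligase subunit that marks p27 for destruction (-0.57 ± 0.15, limma adjusted p = 0.00776), Fbxo5, an inhibitor of the anaphase-promoting complex (-1.24 ± 0.31, 0.00722), and Foxo1, an activator of Cdkn1b (-0.33 ± 0.08, 0.00417). Of these 6 calls, 3 were lost in between 2 and 6 of 22 alternatives.

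Of 14 measured genes of the p53 axis, which controls Cdkn1a, 0 passed in E2f TKO crypts (median 0.16). In Myc KO crypts 1 was higher (median 0.06), where 3.59% of all genes were higher. It was Gtse1 (0.26 ± 0.07, limma adjusted p = 0.0218), whose call was lost in 4 of 22 alternatives (adjusted p up to 0.0715). In QKO crypts 6 were higher and 1 lower (median 0.25), where 14.3% of all genes were higher and 12.6% lower. Of the 6 higher calls, those of 2 genes not named here were lost in 3 and 1 of 22 alternatives (limma adjusted p up to 0.0871 and 0.0558). Trp53inp1 (1.02, 0.00277), Phlda3 (1.11, 0.00416) and Plk2 (1.05, 0.00914) were higher and Sesn1 (-0.72, 0.00544) lower in QKO crypts.

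Of 12 genes of the TGF-beta pathway, which controls Cdkn2b, 1 was higher in E2f TKO crypts, and 1 was higher and 1 lower in Myc KO crypts (medians 0.00 and 0.20). In QKO crypts 3 were higher and 2 lower (median 0.05), where 14.3% of all genes were higher and 12.6% lower. Of the 3 higher calls, 1, of a gene not named here, was lost in 5 of 22 alternatives (limma adjusted p up to 0.0993). Tgfbr2, a receptor subunit, was higher by 1.30 ± 0.23 in E2f TKO (limma adjusted p = 0.0036), 1.40 ± 0.25 in Myc KO (0.00283) and 2.54 ± 0.23 in QKO crypts (1.94e-06). Smad4, the shared signal carrier, was lower by -0.39 ± 0.06 in Myc KO (0.00172) and -0.66 ± 0.06 in QKO crypts (1.7e-06), the inhibitory Smad7 was lower (-0.43, 0.00365) and the ligand Tgfb1 higher (0.65, 0.000547) in QKO crypts.

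Of 13 genes listed as repressors of Cdkn2a (Polycomb and Tbx genes, and Twist1), 0 passed in E2f TKO or Myc KO crypts. In QKO crypts 0 were higher and 2 lower, where 14.3% of all genes were higher and 12.6% lower. The 2 were Bmi1 (-0.36, limma adjusted p = 0.0224) and Suz12 (-0.30, 0.0414). Both calls were lost in some alternatives, 4 of 22 for Bmi1 (adjusted p up to 0.0714) and 9 of 22 for Suz12 (up to 0.149). Of 8 genes of the Myc and Miz1 arm, the only call against control was Myc itself, in Myc KO and QKO crypts. Of 9 measured genes of the imprinted region around Cdkn1c, 0 passed in E2f TKO or Myc KO crypts. In QKO crypts 3 were higher, where 14.3% of all genes were higher. They were Kcnq1, a potassium channel (0.93, 0.00182), Cd81 (0.30, 0.00299) and Kcnq1ot1, the paternally expressed RNA of the locus (0.94, 0.0386, lost in 5 of 22 alternatives, where it reached 0.104), while Cdkn1c differed by -0.02.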

How the data were processed

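Biotin-labelled total RNA from crypts was measured on 18 arrays, per the labels' protocols, with 45101 probe sets each. The authors deposited log2 signals. That it is log2 was inferred from its range, 2.29 to 14.81, and how the authors normalized the arrays and summarised the probes is not given in the sources used here. Values were used as deposited, since array medians differed by 0.126, under the limit of 0.2 set for rescaling. Arrays correlated at 0.973 to 0.996 and 0 pairs were identical. Precision is limited by the number of arrays. No probe set was filtered as dim, and no detection calls were used.

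Genes were named from the platform annotation, keeping 34945 probe sets with 1 symbol (18193 genes). Differences were fitted by lmFit, contrasts.fit and eBayes of limma 3.58.1 (R 4.3.3) in 1 fit of 4 group means to 18 arrays, and the p-values of 7 comparisons were each adjusted by Benjamini and Hochberg over all genes, with a threshold of 0.05. Tables were read with data.table version 1.17.8 and pandas 2.3.3, and figures drawn with matplotlib 3.10.9 in Python 3.11.15. In simulated data for E2f TKO against control, 200 of 18193 genes were changed, and 12 of 184 calls were false. On the log2 scale, 63.9% of changes of 0.5, 98.5% of changes of 1 and 98.4% of changes of 2 were recovered. These figures describe the simulated data alone. In the real arrays some of the E2f TKO group stood apart, and the calls ran from 277 to 830 when 1 array was left out. Whether the recovery and false calls would be the same with such arrays was not tested.

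All 7 inhibitor genes are named, with all of their probe sets. Of each pathway list up to 4 members past the test with the smallest p are named, and for each inhibitor past the test against control the 5 genes most like it and the 10 nearest. The genes and lists were chosen with earlier results of these data known. Each result was recomputed with arrays scaled to equal quantiles, with dim genes (below the median gene) left out, with all probe sets of a gene averaged, without probe sets ending in _s_at or _x_at, in the compared groups alone, with the sample number as a block, without E2f TKO 2 and 5, and without each array in turn.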

Additional observations from a re-analysis of the deposited data

Results flagged for a closer look

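Dixon's test for 1 value far from the rest of its group, at the 95% level, was run on each of the 7 genes in each of the 4 groups, 28 tests in all, of which chance would mark about 1 in 20. It marked Cdkn2b in Myc KO array 2, at 10.80, where the other 3 Myc KO arrays read 10.38 to 10.42. It also marked Cdkn2d in QKO array 5, at 6.53, where the other 4 QKO arrays read 6.86 to 6.92. Neither value changes the order of its group against control: the Myc KO arrays overlapped the controls for Cdkn2b, and every QKO array was below every control for Cdkn2d.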

How the results depend on the processing

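The lower calls of Cdkn2c and Cdkn2d in E2f TKO and QKO crypts, against control and against Myc KO, held in all 25 alternatives, with Cdkn2c between -3.44 and -3.19 in E2f TKO and between -3.05 and -2.85 in QKO crypts against control. Leaving out each array in turn gave 2 called inhibitors in E2f TKO against control in every case, 0 to 1 in Myc KO and 2 to 3 in QKO. It gave 0 to 2 for QKO against E2f TKO, 2 to 3 each for QKO and E2f TKO against Myc KO, and 0 for the interaction. Over all genes the calls without 1 array ranged from 277 to 830 for E2f TKO against control (527 with all arrays), 640 to 2227 for Myc KO (1511), 3636 to 5713 for QKO (4888), 2185 to 4288 for QKO against E2f TKO (3100), 918 to 2008 for QKO against Myc KO (1398), 1532 to 3970 for E2f TKO against Myc KO (2552) and 6 to 14 for the interaction (10). With the groups of a comparison alone the counts were 253 for E2f TKO and 2681 for Myc KO against control, 1549 for QKO against E2f TKO and 1237 for E2f TKO against Myc KO. With genes above the median level alone the interaction had 6. Without E2f TKO 2 and 5, E2f TKO against control had 1322 calls, and QKO against E2f TKO had 1 called inhibitor, Cdkn2c. Where no cause is built into the alternative, the cause was not tested.

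Values that changed sign never passed the test. With quantile normalization they were Cdkn2a (-0.0745) and Cdkn1c (0.0082) in QKO against control, Cdkn2a in QKO against E2f TKO (-0.0018) and Cdkn1b in QKO against Myc KO (0.0021). With quantile normalization the Cdkn2b call in QKO crypts was also lost (-0.87, adjusted p = 0.0767), as it was in the QKO and control arrays alone (0.0883). With the probe sets of a gene averaged they were Cdkn1b in Myc KO (0.29) and QKO (0.0536) against control, Cdkn1a (-0.33) and Cdkn1b (-0.0695) in E2f TKO against Myc KO, and the interaction of Cdkn1a (-0.16). Without E2f TKO 2 and 5 they were Cdkn1a in QKO against E2f TKO (-0.46) and the interactions of Cdkn1a (-0.56) and Cdkn2c (0.0180). Leaving out 1 array gave both signs for Cdkn1b (-0.371 to 0.0435) and Cdkn1c (-0.0336 to 0.317) in Myc KO against control, for Cdkn1b (-0.375 to 0.0401), Cdkn1c (-0.21 to 0.14) and Cdkn2a (-0.0864 to 0.0653) in QKO against control, and for Cdkn1a in E2f TKO (-0.0938 to 0.382) and Myc KO (-0.0012 to 0.20) against control. It did so too for Cdkn1a (-0.20 to 0.28) and Cdkn2a (-0.0172 to 0.0987) in E2f TKO against Myc KO, Cdkn1a (-0.11 to 0.37) and Cdkn2a (-0.0198 to 0.132) in QKO against E2f TKO, Cdkn1b in QKO against Myc KO (-0.155 to 0.151) and the interaction of Cdkn1a (-0.21 to 0.26).

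Sample numbers run from 1 in every group, but the labels do not say that a number pairs samples. Over 25 pairs with the same number, deviations from the group means correlated at -0.16 to 0.35, with a median of 0.15 and 13 over 0.1. Pairs with different numbers had a median of -0.04. Of 18 arrays, 8 correlated best with an array of their own number. The main fit did not pair the samples, since the labels give no pairing. Whether samples of the same number share a batch was not tested. With the number as a replicate block the calls over all genes were 653 for E2f TKO, 1821 for Myc KO and 5335 for QKO against control, and Cdkn1c in E2f TKO against Myc KO no longer passed (-0.54, adjusted p = 0.0582). Arrays without detection calls limit what can be said of Cdkn2a and of the low signals of Cdkn2c and Cdkn2d.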
